A study of Mus musculus with 6 samples.

Results

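The genes described here are Ccn1 and 7 other genes of the YAP-TEAD pathway, namely Ccn2, Ankrd1, Amotl2, Lats2, Yap1, Wwtr1 and Tead1. They were taken from the platform annotation by gene symbol, and all 8 were found among the 19505 genes measured, each with 1 transcript cluster (the array's unit for a gene). The set was selected on the measured levels of Ccn1, which lay higher at 40 µM and not at 2.5 µM. The levels of the 8 genes in the 3 groups are therefore given as a description, with no test and no p-value. Confidence intervals are given for Yap1, Wwtr1 and Tead1 alone. They show the precision of small differences and are not read as tests. Expression had been measured with single-colour Affymetrix arrays in B16F10, a mouse melanoma cell line that is 1 line from 1 supplier, after 48 h in medium alone (control), in medium with 2.5 µM of the compound that the labels call di-sq or SQ-diEG, or in medium with 40 µM of it. Each group held 2 arrays, and the labels do not say that these came from separate cultures. Every standard error pools the spread between arrays within all 3 groups, drawn towards that of other genes, and may be technical in origin. The description fields of some samples name another treatment, and the grouping used the titles and the treatment labels.

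YAP (gene Yap1) and TAZ (gene Wwtr1) are transcriptional coactivators without a DNA-binding domain of their own. They act in the nucleus through the TEAD transcription factors, and the Hippo kinases, which end in LATS1 and LATS2, phosphorylate them and hold them in the cytoplasm. Ccn1 (formerly Cyr61) and Ccn2 (formerly Ctgf), which encode secreted matrix proteins, and Ankrd1, which encodes a nuclear and sarcomeric ankyrin-repeat protein, are the target genes most often read as a measure of YAP activity. Amotl2 and Lats2 are targets too, but encode inhibitors of YAP and so belong to its negative feedback. Ccn1 is also a serum-induced immediate early gene that other pathways control.

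Because TEAD factors bind the sequence GGAATG, the 250 bases before the annotated start of each gene were read for it on both strands (RefSeq, GRCm38.p6). Windows were held for 6 of the 8 genes, 8 windows in all, Ccn2 and Tead1 having none in the table used. The letters stood in windows of 5 genes, Ccn1, Ankrd1, Amotl2, Yap1 and Wwtr1, and in neither of the 2 windows of Lats2. Of all 32851 windows of this length, 12.6% held them. Counted by gene, 13.3% of the 15691 measured genes with a window held them in at least 1. The windows of the 3 target genes with a match are shown because these genes share the letters, while their levels, described below, differed: Ccn1 lay above control at 40 µM, Amotl2 lay below it, and Ankrd1 was at background on every array. Capitals mark GGAATG or its reverse complement CATTCC. The Ccn1 window is chr3:145649986-145650235 on the minus strand, the Ankrd1 window chr19:36119845-36120094 on the minus strand and the Amotl2 window chr9:102717554-102717803 on the plus strand, each written 5′ to 3′ in the direction of the gene.
Ccn1: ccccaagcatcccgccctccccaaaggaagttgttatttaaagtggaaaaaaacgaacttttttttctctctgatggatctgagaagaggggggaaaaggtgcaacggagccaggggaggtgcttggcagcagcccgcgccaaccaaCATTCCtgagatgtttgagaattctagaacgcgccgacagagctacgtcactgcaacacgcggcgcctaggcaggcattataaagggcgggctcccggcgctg
Ankrd1: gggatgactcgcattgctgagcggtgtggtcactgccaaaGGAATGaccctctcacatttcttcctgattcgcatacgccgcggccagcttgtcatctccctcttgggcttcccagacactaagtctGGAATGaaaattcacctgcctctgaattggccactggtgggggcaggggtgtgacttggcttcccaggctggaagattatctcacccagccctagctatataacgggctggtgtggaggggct
Amotl2: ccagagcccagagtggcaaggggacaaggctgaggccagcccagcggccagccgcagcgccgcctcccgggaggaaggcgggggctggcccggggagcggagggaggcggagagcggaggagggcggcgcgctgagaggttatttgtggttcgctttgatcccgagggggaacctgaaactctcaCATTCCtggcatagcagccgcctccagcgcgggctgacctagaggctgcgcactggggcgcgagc
In Ccn1 the match ran from base 103 to base 98 before the start, on the opposite strand, and in Amotl2 from base 65 to base 60, also on the opposite strand. Ankrd1 held 2 matches on the gene's own strand, from base 210 to base 205 and from base 123 to base 118. The CRE half-site TGACG (the core that CREB and ATF factors bind, searched on both strands, with no overlap with the TEAD letters) stood once in the Ccn1 window, from base 58 to base 54 before the start on the opposite strand. It stood at 2 places in 1 of the Lats2 windows, from base 28 to base 24 and from base 6 to base 2 on the gene's own strand. Of all windows 17.8% held it, and of the measured genes with a window 23.4% did. The AP-1 letters TGANTCA were in none of the 8 windows and in 6.75% of all. A match says only that these letters are present.

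On every array the values are log2 expression from robust multi-array averaging (RMA), and a gene is called above background when its highest group mean exceeds 9.94, the mean over the arrays of the level that 95% of the 5222 negative control features stay under. By this measure 77.4% of genes lay at background in all 3 groups. The melanoma markers Mitf, Sox10, Mlana, Pmel, Tyr, Tyrp1 and Dct all lay above it, between 12.67 and 19.21 over the arrays, and the 16 markers measured of fibroblasts, endothelium, leukocytes and keratinocytes lay between 2.76 and 5.94. Both replicate 1 arrays of treated cells differed from the remaining 4 in technical quality. The mean of their spiked hybridisation controls was 10.43 at 2.5 µM and 10.30 at 40 µM, and no control array was like them. The remaining arrays had means of 10.82 to 11.15. The highest mean was on 40 µM replicate 2, so the 2 arrays at 40 µM were the extremes of the series. Spiked poly-A controls averaged 5.65 and 5.63 on the replicate 1 arrays of treated cells and 6.3 to 7.4 on the rest. They too were highest on 40 µM replicate 2. For members above background, 40 µM is therefore also set against 2.5 µM within the replicate 1 pair and within the replicate 2 pair.

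Ccn1 was the member whose level stood highest against its own control at 40 µM. Its log2 level was 13.46 and 13.48 on the control arrays, 13.35 and 13.19 at 2.5 µM, and 14.27 and 14.59 at 40 µM. Both arrays at 40 µM lay above the other 4, and both at 2.5 µM lay slightly below the controls, so that the order was 2.5 µM, control, 40 µM. Cells at 40 µM averaged 14.43 ± 0.23 and control cells 13.47 ± 0.02 (SD, n = 2 each), a log2 difference of 0.96 with a standard error of 0.18, or 1.94-fold. Against 2.5 µM the difference was 1.16 with a standard error of 0.18, or 2.23-fold. Control and 2.5 µM, the neighbours in this order, differed by -0.20, about the size of the same error of 0.18. That error also holds the spread between the 40 µM arrays. In bulk samples, more cells with the transcript and more of it per cell cannot be told apart.

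The values of Ccn1 on the 2 kinds of array are given as a description, since the gene was picked for lying higher at 40 µM. No control array was low in hybridisation controls, so the difference from control cannot be read within that kind. Within the pair of replicate 1 arrays, low in hybridisation controls, 40 µM lay 0.92 above 2.5 µM, and within the replicate 2 pair 1.40 above it. Against the control mean, Ccn1 was 0.79 higher on 40 µM replicate 1 and 1.12 higher on 40 µM replicate 2. Among the 4401 genes above background in at least 1 group, 157 had a larger log2 difference between 40 µM and control. Over all genes, both arrays at 40 µM lay above the other 4 for 6.17%, and for 1.03% both arrays at 40 µM lay above and both at 2.5 µM below the controls, as for Ccn1. These shares describe the setting of a pattern for which the gene was picked.

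**Figure D1:**
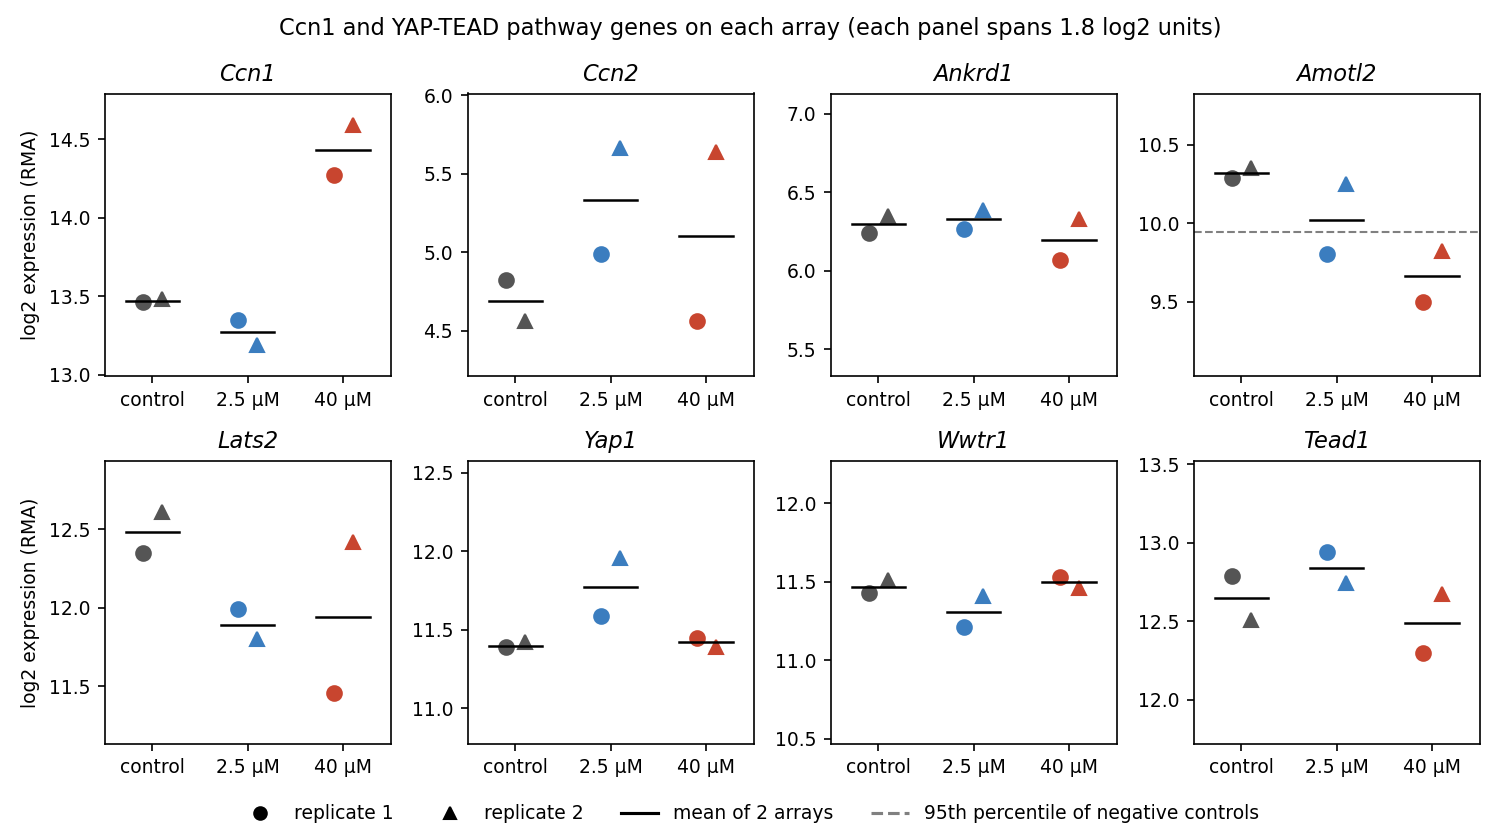
Log2 expression (RMA, y axis) of the 8 genes in control, at 2.5 µM and at 40 µM (x axis), 1 point per array, circles for replicate 1 and triangles for replicate 2, with a bar at the mean of the 2 arrays. Every panel spans the same log2 range, and the dashed line marks 9.94, the background level, where it falls inside the panel. Ccn1 at 14.27 and 14.59 stands above its other 4 arrays, and Amotl2 at 9.50 and 9.82 lies below its controls.

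The other 2 classical readout genes were at background. Ccn2 had log2 levels of 4.82 and 4.56 in control, 4.99 and 5.66 at 2.5 µM, and 4.56 and 5.64 at 40 µM. These values exceeded between 19.4% and 41.8% of the negative control features of their arrays, and at 40 µM replicate 1 lay at the level of the lower control while replicate 2 lay near the highest value of all. The fitted difference between 40 µM and control, 0.41 with a standard error of 0.40, is therefore one between background values. Ankrd1 had levels of 6.24 and 6.35 in control, 6.27 and 6.39 at 2.5 µM, and 6.07 and 6.33 at 40 µM, with a difference of -0.10 and a standard error of 0.22 between 40 µM and control. Its values exceeded between 49.1% and 57.5% of the negative controls, and its groups overlapped throughout. No statement on the direction of either transcript can be made from these arrays.

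The 2 feedback targets lay lower at 40 µM than in control, and differed in how their arrays fell. Amotl2, an angiomotin family scaffold that sequesters YAP, had log2 levels of 10.29 and 10.35 in control, 9.80 and 10.25 at 2.5 µM, and 9.50 and 9.82 at 40 µM. The order of the means ran downwards with dose, and neither treated group overlapped the controls, while the arrays at 2.5 µM and 40 µM overlapped each other. Cells at 40 µM averaged 9.66 ± 0.23 and control cells 10.32 ± 0.04 (SD, n = 2 each), a difference of -0.66 with a standard error of 0.23. The mean at 40 µM was below 9.94, so the lower end of this difference is at background. Within the replicate 1 pair Amotl2 was at 9.50 at 40 µM, against 9.80 at 2.5 µM, and within the replicate 2 pair at 9.82, against 10.25, differences of -0.30 and -0.42.

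Lats2, the kinase that phosphorylates YAP and TAZ, had log2 levels of 12.35 and 12.61 in control, 11.99 and 11.80 at 2.5 µM, and 11.46 and 12.42 at 40 µM. Both arrays at 2.5 µM lay below both controls, and at 40 µM replicate 1 lay below every other array while replicate 2 lay between the controls. Cells at 40 µM averaged 11.94 ± 0.68 and control cells 12.48 ± 0.19 (SD, n = 2 each), a difference of -0.54 with a standard error of 0.32. At 2.5 µM the mean was 11.89 ± 0.14, a difference of -0.59 from control with the same standard error. The value at 40 µM rested on the array low in hybridisation controls, being -1.02 against the control mean on replicate 1 and -0.06 on replicate 2. Against 2.5 µM, 40 µM lay at -0.53 within the replicate 1 pair and at 0.63 within the replicate 2 pair, in opposite directions. The part of that array property in these values was not tested.

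The coactivators and TEAD1 lay closer to control at 40 µM. Yap1 had log2 levels of 11.39 and 11.42 in control, 11.59 and 11.96 at 2.5 µM, and 11.45 and 11.39 at 40 µM. Both arrays at 2.5 µM lay above the other 4, whereas the arrays at 40 µM and the controls overlapped. The difference was 0.02 between 40 µM and control and 0.37 between 2.5 µM and control, each with a standard error of 0.20. For 40 µM the 95% confidence interval ran from -0.45 to 0.49. Against 2.5 µM, 40 µM lay at -0.14 within the replicate 1 pair and at -0.56 within the replicate 2 pair.

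Wwtr1, the gene of TAZ, had levels of 11.43 and 11.51 in control, 11.21 and 11.41 at 2.5 µM, and 11.53 and 11.46 at 40 µM. The arrays at 2.5 µM lay lowest and those at 40 µM overlapped the controls, with a difference of 0.03 and a standard error of 0.18 (95% confidence interval from -0.40 to 0.46). Within the replicate 1 pair 40 µM lay 0.32 above 2.5 µM, and within the replicate 2 pair 0.05 above it. Tead1, the DNA-binding partner measured here, had levels of 12.79 and 12.51 in control, 12.94 and 12.74 at 2.5 µM, and 12.30 and 12.67 at 40 µM. Its arrays at 40 µM lay below those at 2.5 µM and overlapped the controls, with a difference from control of -0.16 and a standard error of 0.21 (95% confidence interval from -0.66 to 0.34). Against 2.5 µM, 40 µM lay at -0.64 within the replicate 1 pair and at -0.07 within the replicate 2 pair. Most of the gap between the doses thus lay on the arrays low in hybridisation controls.

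**Figure D2:**
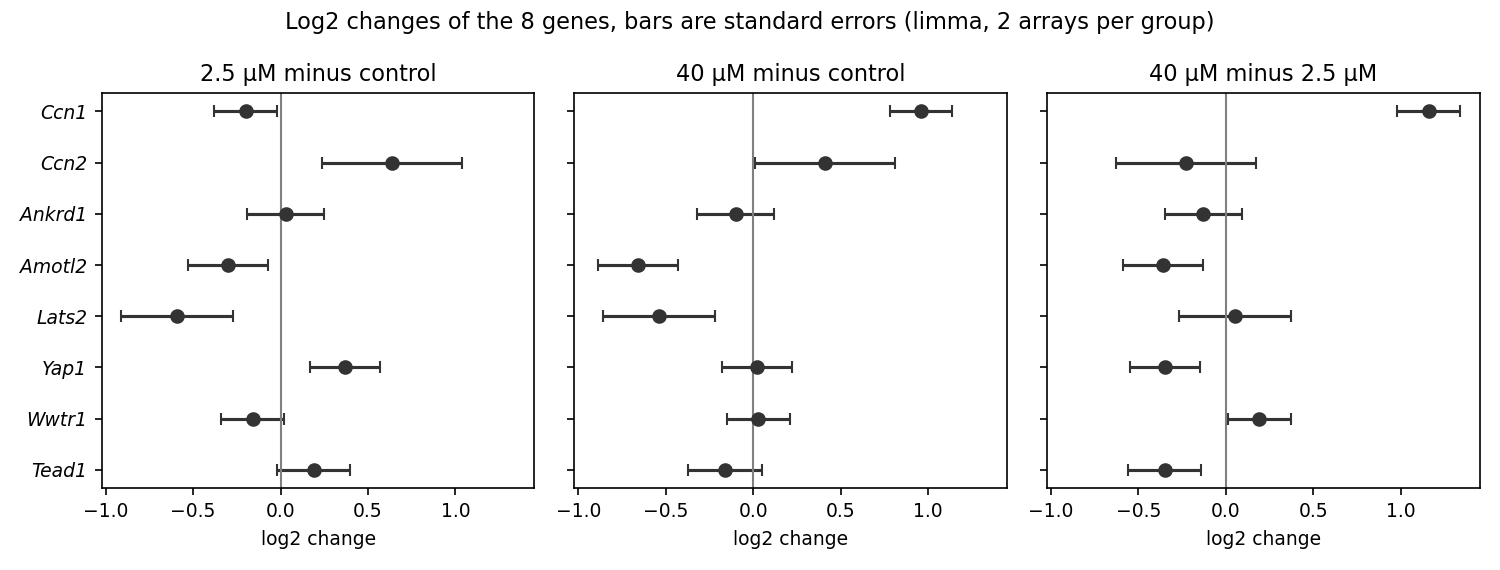
Log2 changes (x axis) of the 8 genes (y axis) in the 3 comparisons, 1 panel each, with the standard error of the limma fit as bars. Ccn1 lies at 0.96 and 1.16 in the 2 comparisons of 40 µM and at -0.20 in that of 2.5 µM with control, and Yap1, Wwtr1 and Ankrd1 lie near 0 between 40 µM and control.

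The 8 genes were also counted together between 40 µM and control. Ccn1 was the 1 gene whose arrays at 40 µM lay wholly above the controls, as 22.2% of all genes did, and Amotl2 the 1 wholly below, as 26.3% did, while the arrays of the other 6 overlapped. The median log2 difference of the 8 was -0.04, against -0.01 over all genes. Since these contrasts served to choose the set, nothing is read from the counts. Over all 19505 genes, 0.0% passed an adjusted p of 0.05 between 40 µM and control (limma with Benjamini-Hochberg adjustment, smallest adjusted p of any gene 0.334), and at an unadjusted p under 0.05 5.18% were higher and 6.86% lower. Leaving out 40 µM replicate 2 leaves that dose 1 array, which is low in hybridisation controls. Ccn1 then differed from control by 0.79, and by 1.12 without 40 µM replicate 1 instead.

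At 2.5 µM the same genes were counted in the same way, again as a description. Ccn2 and Yap1 lay wholly above the controls, as 27.1% of all genes did. Ccn1, Amotl2, Lats2 and Wwtr1 lay wholly below them, as 25.9% did. The median of the 8 was -0.06, against 0.01 over all genes. Between 40 µM and 2.5 µM, Ccn1 and Wwtr1 lay wholly above at 40 µM, as 12.4% of all genes did, and Yap1 and Tead1 wholly below, as 16.3% did. For Wwtr1 and Tead1 the gap was small within the replicate 2 pair, as given above. Over all genes, 0.0% passed between 2.5 µM and control (limma with Benjamini-Hochberg adjustment, smallest adjusted p 0.479), and at an unadjusted p under 0.05 4.24% were higher and 5.38% lower. Between 40 µM and 2.5 µM 0.0% passed (limma with Benjamini-Hochberg adjustment, smallest adjusted p 0.132), and 2.34% were higher and 3.28% lower at an unadjusted p under 0.05. The comparisons share their arrays with each other and are set side by side only.

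Further targets of YAP and TEAD were read from a list of 22 genes, of which 21 were measured and 8 lay above background in at least 1 group. Between 40 µM and control 0 of the 21 passed over all genes (limma). At an unadjusted p under 0.05, 2 of the 21 were higher, where 5.18% of all genes were, and 3 were lower, where 6.86% of all genes were. The arrays at 40 µM lay wholly above the controls for 3 of the 21 and wholly below for 10, where 22.2% and 26.3% of all genes did so. The list's median was -0.10, against -0.01 over all genes, and it was -0.22 on 40 µM replicate 1 and -0.20 on replicate 2 against the control mean.

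Among the targets above background, the genes lying farthest below control at 40 µM were Ptpn14 and Crim1. Ptpn14, a phosphatase that holds YAP in the cytoplasm and thus a further feedback gene, had log2 levels of 12.39 and 12.60 at 40 µM, against 13.24 and 13.15 in control. Both arrays at 40 µM lay below both controls and below the 2.5 µM arrays, at 13.34 and 12.96, and the difference from control was -0.70 with a standard error of 0.20 (limma, adjusted p = 0.349). Crim1, a transmembrane protein that binds BMP ligands, had 12.08 and 12.23 at 40 µM, against 12.59 and 12.63 in control, a difference of -0.45 with a standard error of 0.18 (limma, adjusted p = 0.395). Neither passed. On the other side lay Gadd45a, a stress-induced gene that other pathways also control, with 12.55 and 11.93 at 40 µM, against 11.56 and 11.60 in control, a difference of 0.66 with a standard error of 0.26 (limma, adjusted p = 0.395). Asap1, an activator of Arf GTP hydrolysis, differed by 0.18 with a standard error of 0.19, with arrays that overlapped the controls.

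The kinase cassette and its upstream regulators had 22 measured genes of 23 listed, 12 of them above background. None passed between 40 µM and control, with 0 higher and 2 lower at an unadjusted p under 0.05 (limma), where 5.18% and 6.86% of all genes were, and the median was 0.02. The arrays at 40 µM lay wholly above the controls for 4 of the 22 and wholly below for 3, where 22.2% and 26.3% of all genes did so. Amotl1, the paralog of Amotl2 and like it a binder of YAP, had log2 levels of 12.18 and 12.25 in control, 11.53 and 11.72 at 2.5 µM, and 10.98 and 11.83 at 40 µM. Both treated groups lay below the controls, by -0.59 at 2.5 µM and by -0.80 at 40 µM, each with a standard error of 0.29 (limma, adjusted p = 0.553 and 0.373). As with Lats2, the lower value at 40 µM was on replicate 1.

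Of the regulators on the other side, Wwc2, a KIBRA family scaffold that activates LATS, had 10.67 and 10.70 in control, 11.37 and 11.20 at 2.5 µM, and 12.14 and 10.86 at 40 µM. Its difference between 40 µM and control was 0.82 with a standard error of 0.38, and most of it lay on the array low in hybridisation controls. Nf2, the gene of the tumour suppressor merlin, had 11.96 and 12.13 in control, 12.72 and 12.27 at 2.5 µM, and 12.78 and 12.24 at 40 µM, differences of 0.46 and 0.47 from control at the lower and the higher dose with a standard error of 0.25. Within both doses its higher value was on replicate 1. Map4k4, a kinase upstream of LATS, differed by -0.28 with a standard error of 0.27 at 40 µM, being 12.12 and 12.89, against 12.83 and 12.74 in control. None of these 3 genes passed, with limma adjusted p-values between 0.439 and 0.674.

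Of the TEAD paralogs and their VGLL cofactors, 7 genes, Vgll3 alone lay above background. It had 15.40 and 15.09 at 40 µM, against 15.27 and 15.29 in control, a difference of -0.03 with a standard error of 0.17. The receptors through which CCN proteins act on cells, 10 genes with 5 above background, had a median of 0.03. The arrays at 40 µM lay wholly above the controls for 1 of the 10 and wholly below for 4, where 22.2% and 26.3% of all genes did so. Itgav, the integrin alpha-v subunit, had 11.34 and 11.23 in control, 10.77 and 10.95 at 2.5 µM, and 10.62 and 10.91 at 40 µM, a difference between 40 µM and control of -0.52 with a standard error of 0.20 (limma, adjusted p = 0.395). Sdc4, the proteoglycan syndecan-4, differed by -0.10 with a standard error of 0.18, Itga6 by 0.16 with 0.22 and Itgb1 by 0.05 with 0.21.

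**Figure D3:**
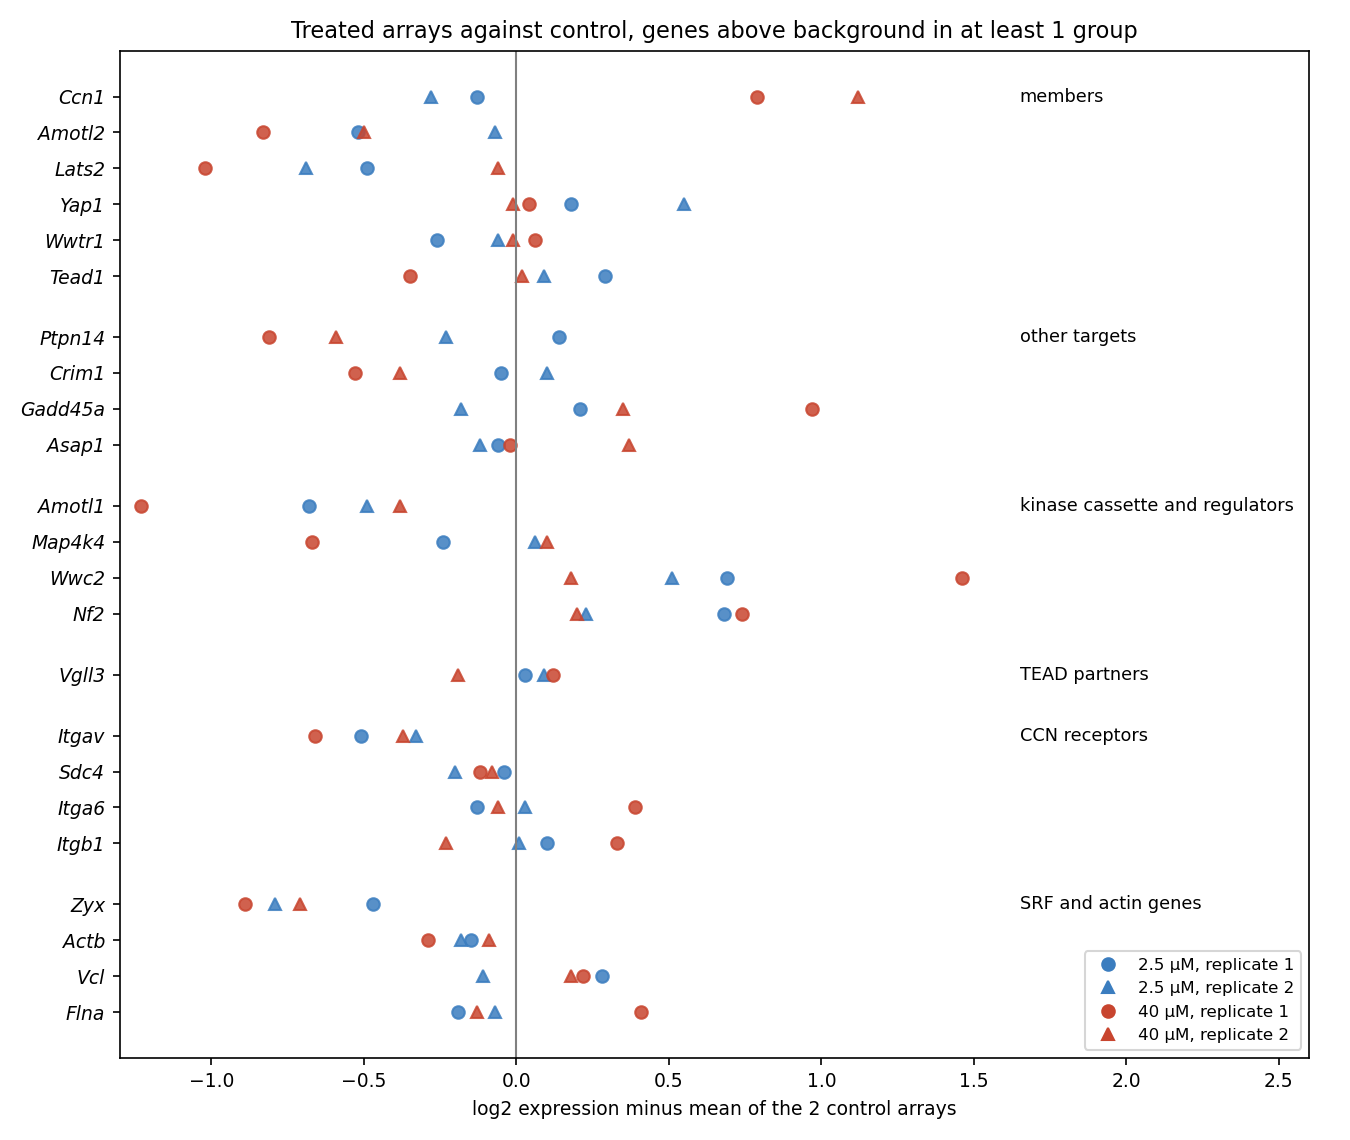
Log2 expression on each treated array minus the mean of the 2 control arrays (x axis) for named pathway genes above background in at least 1 group (y axis), with blue for 2.5 µM, red for 40 µM, circles for replicate 1 and triangles for replicate 2. Ccn1 stands at 0.79 and 1.12 at 40 µM, and Gadd45a, Wwc2, Nf2 and Vcl also have both 40 µM arrays right of 0. Both lie left of 0 for Amotl2, Lats2, Ptpn14, Crim1, Amotl1, Itgav, Sdc4, Zyx and Actb.

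Genes of the actin cytoskeleton and of its transcription factor SRF were listed as well, since SRF and its MRTF cofactors also control Ccn1 and share many targets with YAP. Of 16 listed genes 15 were measured and 6 lay above background. None passed between 40 µM and control, with 0 higher and 1 lower at an unadjusted p under 0.05 (limma), where 5.18% and 6.86% of all genes were, and the median was 0.07. The arrays at 40 µM lay wholly above the controls for 5 of the 15 and wholly below for 3, where 22.2% and 26.3% of all genes did so. The lower gene was Zyx, which encodes zyxin of focal adhesions and stress fibres, with 12.59 and 12.38 in control, 12.02 and 11.69 at 2.5 µM, and 11.59 and 11.78 at 40 µM. Its treated arrays all lay below both controls, and the difference between 40 µM and control was -0.80 with a standard error of 0.20 (limma, adjusted p = 0.349). Actb (beta-actin) differed by -0.19 with a standard error of 0.14, Vcl (vinculin) by 0.20 with 0.21 and Flna (filamin A) by 0.14 with 0.22.

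**Figure D4:**
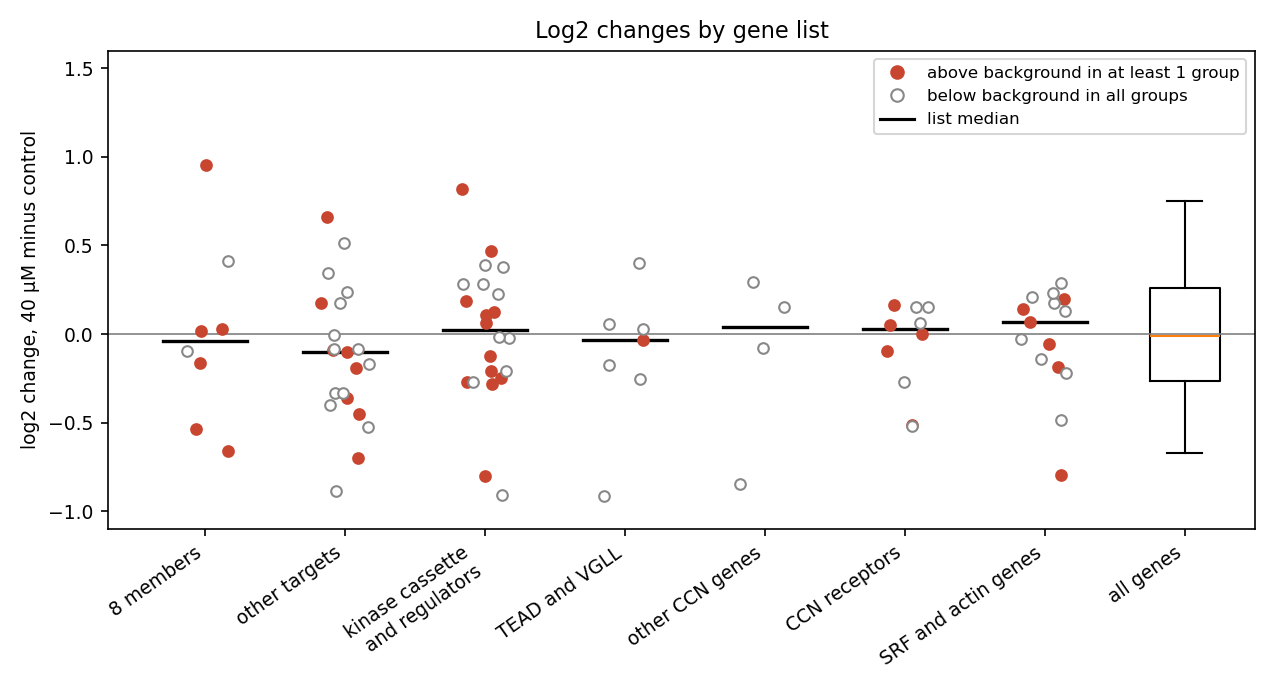
Log2 change between 40 µM and control (y axis) of each measured gene in the 7 lists (x axis), red where the gene lay above background in at least 1 group and white where it did not, with the list median as a bar. The box on the right gives the median, quartiles and 5th to 95th percentiles of all 19505 genes. The list medians lie between -0.10 and 0.07, and Ccn1 is the uppermost point among the 8 members.

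The genes whose log2 profile over the 6 arrays was closest to that of Ccn1 were sought among the 4400 other genes above background in at least 1 group, by the root mean square difference between profiles centred on their own means. The closest 5 were Ephx1 (microsomal epoxide hydrolase) at 0.167, Ibtk (inhibitor of Bruton tyrosine kinase) at 0.183, Tgfb1 (transforming growth factor beta 1) at 0.202, Lipa (lysosomal acid lipase) at 0.209 and Scd1 (stearoyl-CoA desaturase) at 0.224. Their Pearson correlations with Ccn1 over the 6 arrays, which share groups and array quality, were 0.948, 0.965, 0.970, 0.921 and 0.924 in the same order, given as a description. Tgfb1 and Ibtk exceeded 9.94 in the mean of the 40 µM group alone, so that for them the background level itself admitted a profile highest at 40 µM. Tgfb1 had 9.59 and 9.69 in control, 9.48 and 9.41 at 2.5 µM, and 9.95 and 10.42 at 40 µM. Like those of Ccn1, the means of Tgfb1, Ephx1, Ibtk and Scd1 were lowest at 2.5 µM and highest at 40 µM. The ranking picked genes for nearness to the profile of Ccn1, so this order and the correlations were largely fixed in advance. The mean of Lipa was lowest in control. No other member was near the top of this ranking of 4400 genes. Wwtr1 was at rank 692 with a difference of 0.474, Tead1 at 3267, Yap1 at 3319, Lats2 at 3472 and Amotl2 at 4099, and Ccn2 and Ankrd1 were not ranked, being below background.

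**Figure D5:**
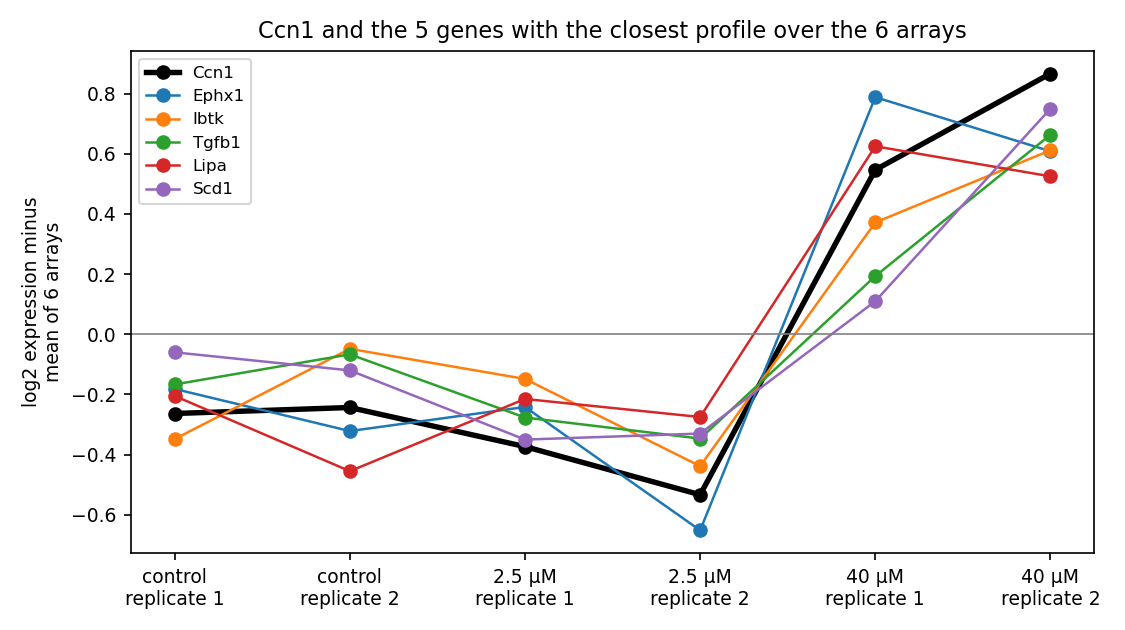
Log2 expression minus the mean of the 6 arrays (y axis) on each array (x axis) for Ccn1 (black) and the 5 genes with the closest profile. All 6 genes lie below their mean on the 4 arrays of control and 2.5 µM and above it on both arrays at 40 µM. The choice by closeness to Ccn1 largely fixed this.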

How the data were processed

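The deposited table holds log2 expression values. Per the submitters' processing notes the authors used RMA, Transcriptome Analysis Console and Affymetrix Expression Console (versions, genome build and filters not given in the sources used here). Some deposited log2 values lie above the maximum of a scanner image, so a further step is unstated and folds are on the deposited scale. The table had 28846 features, 6640 of them controls. Of 22206 transcript clusters, 19572 had 1 gene symbol and 2634 none. A gene's cluster with the highest mean was kept, which gave 19505 genes, with no filter on level. The 3 comparisons were fitted together on the 6 arrays with limma 3.58.1 (R 4.3.3), as a mean per group without covariates, with a variance prior that depends on level (3 residual degrees of freedom, prior 4.11). Tests were two-sided at an adjusted p of 0.05 (Benjamini-Hochberg, all genes). The fit was tested on simulated data. Tables were made with Python 3.11.15.

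Arrays give no depth, and the 2 arrays per group limit the precision. The members, lists and alternatives were chosen with earlier results of these data known. Besides the 8 members, each list named up to 4 genes above background, the 2 highest and the 2 lowest between 40 µM and control, and all other CCN genes. Listed genes not found by symbol, such as Stk3, Actg1, Pdgfra and Cd68, were not analysed here. Alternatives were the variance prior, a level filter, quantile normalization, median centring, the mean of clusters, array weights, blocks for replicate number and array split, only the groups compared, and leaving out arrays.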

Additional observations from a re-analysis of the deposited data

Results flagged for a closer look

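Ccn1 lay on opposite sides of control at the 2 doses. Both arrays at 40 µM were above both controls, with a log2 difference of 0.96, and both arrays at 2.5 µM were below both, with a difference of -0.20. These values served to choose the gene, and no test of them is given. Over all genes, 201 of 19505 (1.03%) had this same arrangement of arrays.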

How the results depend on the processing

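The log2 change of Ccn1 kept its sign in all 3 comparisons under each of the 16 alternatives, which was largely fixed in advance. Its groups did not overlap in any comparison, so leaving out arrays could not change a sign. The variance prior, array weights, the replicate block and some others leave a difference of group means as it is. The kept sign is therefore no support for the difference. Leaving out 1 array at a time gave 0.79 to 1.12 between 40 µM and control, -0.28 to -0.13 between 2.5 µM and control, and 1.00 to 1.32 between 40 µM and 2.5 µM. Without both arrays low in hybridisation controls the first was 1.12 and the last 1.40, by the choice of arrays alone. Of the 333 values of the 7 other members under alternatives, 20 changed sign, 13 of them between 40 µM and control. The 333 include values that such alternatives could not change. Between 40 µM and control, Amotl2 (-0.83 to -0.47) and Lats2 (-1.02 to -0.06) kept their sign throughout, and Yap1, Wwtr1, Tead1, Ankrd1 and Ccn2 did not.

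The count of genes passing over all genes was 0 in each comparison. Without both low arrays it was 3749 for 40 µM against control, 3991 for 2.5 µM against control and 2965 for 40 µM against 2.5 µM, with only the 2 control arrays left to estimate the error. Leaving out 1 array gave 0 to 2235 for 40 µM against control, the 2235 being without 40 µM replicate 2, where the lone array left is given the spread of the remaining groups, and 0 in the other comparisons. With the array split as a block 1 gene passed between 40 µM and 2.5 µM, Srxn1, named after its value was seen. The cause was not tested. The replicate block gave 0 calls in each comparison and 0.96 for Ccn1 between 40 µM and control, a value that a balanced block cannot alter. Deviations from the group means correlated at 0.386 between 40 µM and 2.5 µM arrays of equal number, and at -0.005 and -0.012 with control. Treated arrays of equal number thus shared deviations, while the numbers did not pair them with the controls. Whether array quality lay behind this was not tested. Genes whose levels are near background, such as Amotl2 at 40 µM, Ccn2 and Ankrd1, are limited by signal over background.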

Other observations

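The other 4 genes of the CCN family, secreted matrix proteins related to Ccn1 and Ccn2, were all below background on these arrays. Ccn4 (formerly Wisp1) had log2 levels of 8.61 and 8.64 in control, 9.31 and 8.49 at 2.5 µM, and 8.89 and 8.21 at 40 µM, with groups that overlapped. Ccn3 (formerly Nov) lay at 4.86 and 4.57 at 40 µM, against 4.58 and 4.55 in control, and Ccn5 at 6.45 and 7.07, against 6.45 and 6.50. Ccn6 had 3.29 and 4.22 at 40 µM, against 4.70 and 4.49 in control, a difference of -0.85 between background values (limma, standard error 0.35, adjusted p = 0.408). Ccn1 was thus the 1 gene of this family of 6 with a level above background in any group.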
